A study of Homo sapiens with 18 samples.

Results

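The products of 10 genes that epithelia use to defend a mucosal surface were followed while the transcription factor EHF was raised or lowered in head and neck carcinoma cells. The 10 genes were LCN2, RNASE7, PI3, SLPI, PIGR, WFDC2, C3, CFB, SAA1 and TREM1, taken by symbol from the 23710 genes of each count table. Their choice used no expression value, although earlier results of these data were known when they were chosen. RNA sequencing covered 16 libraries of 3 established human lines, all labelled as head and neck squamous carcinoma (HNSCC). A253 with EHF overexpression (3 libraries, grown in medium with doxycycline, which the labels give as 1 ug with no volume) was compared with A253 control cells in regular medium (3 libraries). SCC25 with EHF overexpression (2 libraries, the same doxycycline) was compared with SCC25 control cells in regular medium (2 libraries). CAL27 with EHF knockdown by either of 2 hairpins, sh 64 (2 libraries) and sh 65 (2 libraries), was compared with CAL27 control cells, named sh Control in the count table (2 libraries), all in regular medium. Doxycycline was given only with overexpression, so an effect of the drug and an effect of EHF cannot be told apart. A ChIP library for EHF in CAL27 and its input were not analysed here. The labels do not say that replicates came from separate cultures, so p-values measure only the spread between these libraries, which may be technical.

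EHF is an ETS family transcription factor of epithelia, which binds DNA through a GGAA core. Epithelia of the mouth and airways secrete proteins that starve, kill or tag microbes, and others that protect the tissue from the proteases of inflammation. LCN2 binds the iron carriers of bacteria and RNASE7 kills bacteria directly. SLPI and PI3 (elafin) inhibit neutrophil elastase, and WFDC2 shares their whey acidic protein domain. C3 and CFB are the components that amplify complement by the alternative pathway, and SAA1 is an acute phase protein. PIGR carries polymeric immunoglobulins across epithelium into secretions. TREM1 is a receptor that amplifies inflammatory signals, known mainly from neutrophils and monocytes.

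EHF followed the labels in every library. It stood at 765, 711 and 633 CPM (read counts relative to the library total, scaled by TMM within a line) in overexpressing A253 cells, against 84.5, 91.4 and 83.2 CPM in A253 controls. It stood at 860 and 892 CPM in overexpressing SCC25 cells, against 461 and 420.1 CPM in SCC25 controls. The sh 64 libraries of CAL27 held 497 and 526 CPM and the sh 65 libraries 444 and 469 CPM, against 962 and 992 CPM in CAL27 controls. Sequencing gave between 7068155 and 19962159 counts per CAL27 library, between 10728569 and 15965279 per SCC25 library and between 11090976 and 17823293 per A253 library. All 8 squamous epithelial markers were present in all 3 lines. Of 12 leukocyte markers, TYROBP and MS4A1 had 0 counts in every library and PTPRC had at most 6 counts. The leukocyte list summed to 12.7 to 15.4 CPM in overexpressing A253 cells against 7.65 to 8.05 CPM in A253 controls, and to 40.3 to 47.2 CPM in overexpressing SCC25 cells against 32.5 to 35.8 CPM in SCC25 controls. In A253, CD14 (log2 change 1.40, adjusted p = 1.25e-05, edgeR) and AIF1 (22, 34 and 25 counts against 3, 1 and 0) rose with overexpression. AIF1 passed the low-count filter through the overexpression libraries alone, so its result follows in part from the filter. Squamous markers moved as well. On the CAL27 mean 5 of 8 rose, among them the keratins KRT14 (1.23) and KRT6A (0.91), in SCC25 3 rose, among them TP63 (0.58) and CDH1 (0.30), and in A253 KRT14 (-0.33) and KRT6A (-0.26) fell. At an adjusted p under 0.05 in edgeR, 9.88% of all genes rose on the CAL27 mean. In SCC25 12.2% rose and 11.6% fell, and in A253 2.94% fell. Of 7 fibroblast markers, the collagens COL1A2 (1.44) and COL1A1 (0.84) rose and DCN (-0.32) fell in SCC25, where the list summed to 109 and 111 CPM with overexpression against 88.8 and 99.6 CPM in controls. In A253 COL3A1 fell (-0.65), and in CAL27 LUM rose with sh 64 (1.54, adjusted p = 0.000209) and was not called with sh 65 (0.33). The part of all these markers in the results was not tested.

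The CAL27 libraries held transcripts that the labels do not lead one to look for. Of 10 markers of salivary acini, 9 had counts in CAL27, among them HTN1, HTN3 and STATH in every library, and AMY1A had 0. STATH, which encodes the saliva protein statherin, stood at 86.7 and 45.8 TPM (a level that also allows for gene length) with sh 64 and at 67.8 and 18.6 TPM with sh 65, against 60.8 and 51.1 TPM in controls. The 10 markers summed to 57.6 and 42.0 CPM with sh 64 and to 53.6 and 20.1 CPM with sh 65, against 47.9 and 34.1 CPM in CAL27 controls. In A253 and SCC25 the sum was at most 0.147 and 0.0943 CPM, and at least 9 of the 10 markers were at 0 in each library. None of the 7 markers tested in CAL27 passed the threshold in either hairpin, and edgeR gave the list a median log2 change of 0.483 with sh 64 and 0.111 with sh 65. Those 7 include PRB1 and PRB2, which had counts only in the second library of each hairpin. PRB1 had 20 counts there with sh 64 and 23 with sh 65, and PRB2 had 14 and 21. On the mean of both hairpins the SE of their log2 changes was 5.47 and 5.15. Salivary gland is itself known to make PIGR, SLPI and WFDC2. The part of these transcripts in the CAL27 results was not tested, and because all 6 libraries carried them no CAL27 value can be given without them. Leaving out the sh 65 library with the lowest sum could not show that part, since the other sh 65 library held 53.6 CPM of these markers.

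**Figure D1:**
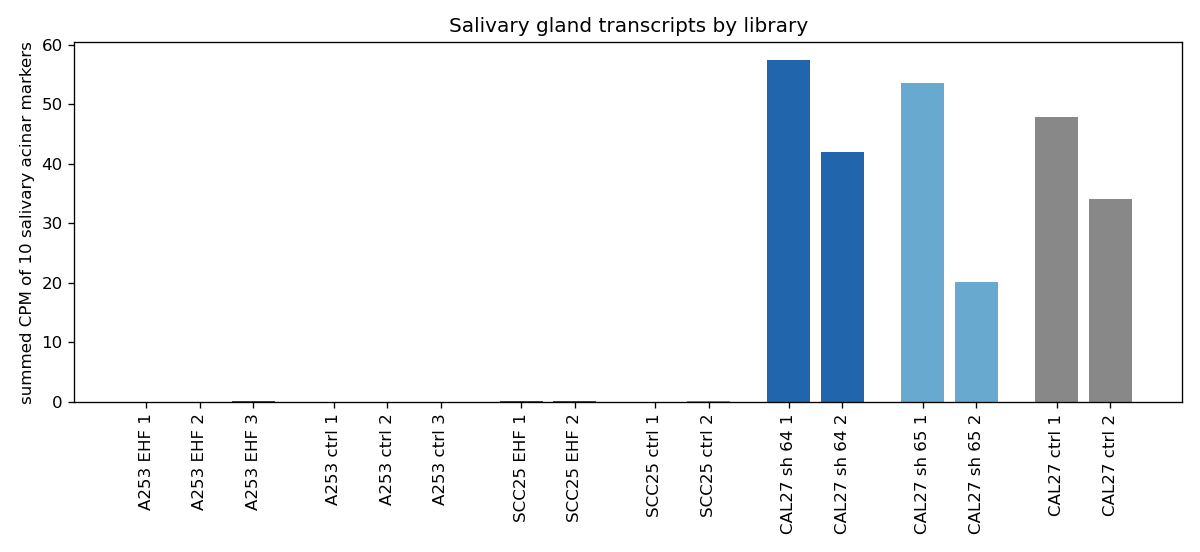
Summed CPM of 10 salivary acinar markers in each of the 16 libraries (bars, linear axis from 0), with EHF-changed libraries left of their controls. The 6 CAL27 libraries stood between 20.1 and 57.6 CPM, and every A253 and SCC25 library was at or below 0.147 CPM.

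RefSeq promoter windows of GRCh38.p14, from 250 bases before to 50 bases after the start of the gene, were at hand for 6 of the 10 genes (LCN2, RNASE7, TREM1, CFB, PIGR and WFDC2). The bare ETS core GGAA, searched on both strands, was present in 6 of the 6, as in 95.5% of all 35116 promoters of the table. The longer ETS motif CGGAAG, which contains that core, was in 0 of the 6, against 19.5% of all promoters. A motif of the NF-kB type, GGG and TTCC with 3 bases between them on either strand, was found in 1 of the 6, LCN2, where it begins 175 bases before the start and overlaps a GGAA core, against 6.52% of all promoters. The windows of LCN2 and RNASE7 are shown because both genes changed with EHF in all 3 lines. That of TREM1 is shown because it fell with overexpression in SCC25, the only line where it could be tested. Capitals mark each GGAA core, read as TTCC where it lies on the other strand, and in LCN2 also the NF-kB type match. The windows are LCN2 at chr9:128149203-128149502 on the plus strand, RNASE7 at chr14:21042112-21042411 on the plus strand and TREM1 at chr6:41286633-41286932 on the minus strand, each written 5′ to 3′ along the gene.
LCN2: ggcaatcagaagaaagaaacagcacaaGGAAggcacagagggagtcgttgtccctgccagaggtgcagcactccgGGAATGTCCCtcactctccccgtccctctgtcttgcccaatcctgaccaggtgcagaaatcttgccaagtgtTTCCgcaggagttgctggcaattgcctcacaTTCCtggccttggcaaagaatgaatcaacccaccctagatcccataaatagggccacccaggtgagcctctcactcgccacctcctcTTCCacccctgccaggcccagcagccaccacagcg
RNASE7: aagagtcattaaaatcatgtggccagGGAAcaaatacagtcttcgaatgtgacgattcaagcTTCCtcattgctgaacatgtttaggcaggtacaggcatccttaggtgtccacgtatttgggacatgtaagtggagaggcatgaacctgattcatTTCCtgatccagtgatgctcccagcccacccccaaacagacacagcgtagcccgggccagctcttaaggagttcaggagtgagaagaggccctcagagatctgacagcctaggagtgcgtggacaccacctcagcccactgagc
TREM1: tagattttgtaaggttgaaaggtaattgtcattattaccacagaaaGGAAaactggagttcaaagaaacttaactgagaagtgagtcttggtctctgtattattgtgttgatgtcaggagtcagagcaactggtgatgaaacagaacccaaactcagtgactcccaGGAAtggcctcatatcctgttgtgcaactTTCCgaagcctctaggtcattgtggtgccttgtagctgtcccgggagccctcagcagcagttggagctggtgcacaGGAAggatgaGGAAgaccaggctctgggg
The LCN2 and TREM1 windows each held 5 GGAA cores and the RNASE7 window held 3. A match describes the letters of the window and does not show that EHF binds there.

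Before EHF was changed, the 3 lines differed widely in these genes. CAL27 controls held the most LCN2, at a mean of 103 TPM, ahead of SCC25 with 59.5 TPM and A253 with 0.736 TPM. RNASE7 had the same order, at 23.2, 2.55 and 0.923 TPM, as did PI3 at 25.7, 13.9 and 2.00 TPM and PIGR at 1.38, 0.396 and 0.205 TPM. SCC25 held the most SLPI (687 TPM, then CAL27 with 284 and A253 with 17.8), SAA1 (585 TPM, then CAL27 with 97.2 and A253 with 0.345) and TREM1 (6.29 TPM, then CAL27 with 0.133 and A253 with 0). C3 in CAL27, at 83.9 and 90.6 TPM, overlapped SCC25 at 69.0 and 85.5 TPM, and both stood above A253 at a mean of 0.661 TPM. A253 was the lowest line for all of these, and WFDC2 was the exception, at 59.8 TPM in CAL27, 35.7 TPM in A253 and 10.0 TPM in SCC25. Apart from C3 in CAL27 and SCC25, no pair of neighbouring lines in these orders overlapped between libraries. CFB stood at 7.87 TPM in CAL27, 4.88 in SCC25 and 0.231 in A253, an order that can be read between lines only. The length behind its TPM was 3.49 times that behind the TPM of C3, although the C3 messenger RNA is known to be the longer, so CFB is not ranked against other genes. A253 also had the lowest EHF of the 3 controls.

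**Figure D2:**
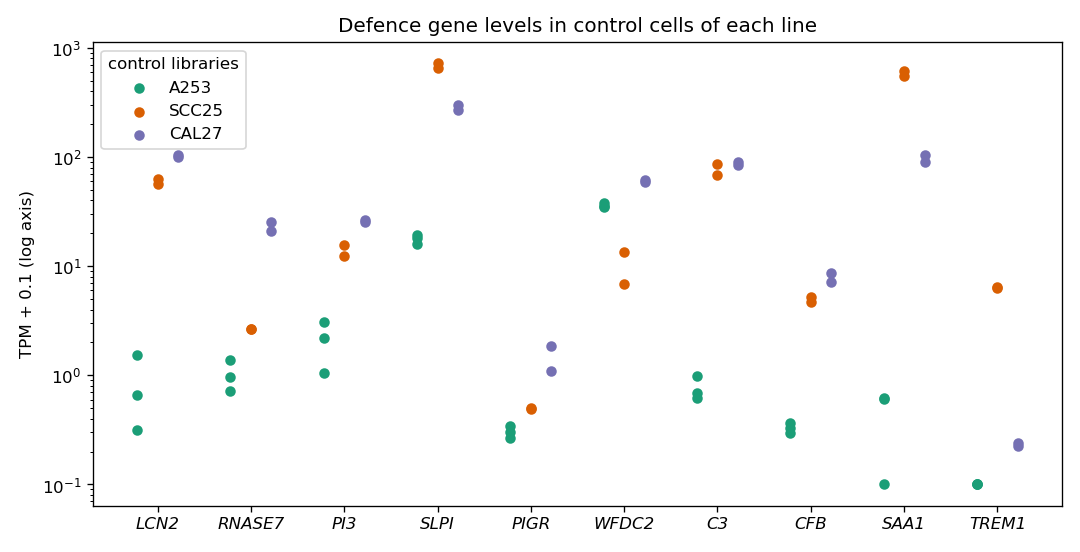
TPM plus 0.1 of each gene in the control libraries of A253, SCC25 and CAL27, on a log axis, 1 point per library. A253 sits lowest for 9 of the 10 genes, and for WFDC2 the lowest line is SCC25.

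With EHF raised, 5 of the 10 genes rose in A253 and 7 in SCC25, and with EHF lowered 5 fell and 1 rose on the mean of both CAL27 hairpins. In overexpressing A253 cells 5 genes rose (LCN2, SLPI, SAA1, RNASE7 and C3) and 0 fell at an adjusted p under 0.05 (edgeR quasi-likelihood test). WFDC2 and CFB were not called, and PI3, PIGR and TREM1 were too low to test. At an unadjusted p under 0.05 the A253 counts were 6 higher and 0 lower, and DESeq2 gave 3 higher and 0 lower. Of all genes tested in A253, 7.97% were called, with 5.03% higher and 2.94% lower. LCN2 and SAA1 passed the low-count filter in A253 through the overexpression libraries alone, and RNASE7 passed it with all 3 overexpression libraries and 1 of 3 controls above its floor, so these calls follow in part from the filter. In overexpressing SCC25 cells, where 10 genes were tested, 7 rose (LCN2, RNASE7, PI3, SLPI, PIGR, CFB and SAA1), 1 fell (TREM1), and WFDC2 and C3 were not called. Without SCC25 control 2, 4 rose. Over all genes in SCC25, 12.2% rose and 11.6% fell, and the median log2 change was 0.00258, against 0.709 over the 10. In CAL27 9 genes were tested, and the mean of both hairpins gave 5 lower (LCN2, RNASE7, C3, CFB and SAA1) and 1 higher (PI3), against 8.91% lower and 9.88% higher of all genes. The median log2 change of the 9 was -0.627, against 0.00252 over all genes tested. With sh 64 alone 4 fell and 2 rose, and with sh 65 alone 5 fell and 1 rose, against 6.89% and 7.01% of all genes lower and 8.76% and 7.62% higher. Both hairpins were set against the same 2 control libraries, so they are not independent of each other.

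**Figure D3:**
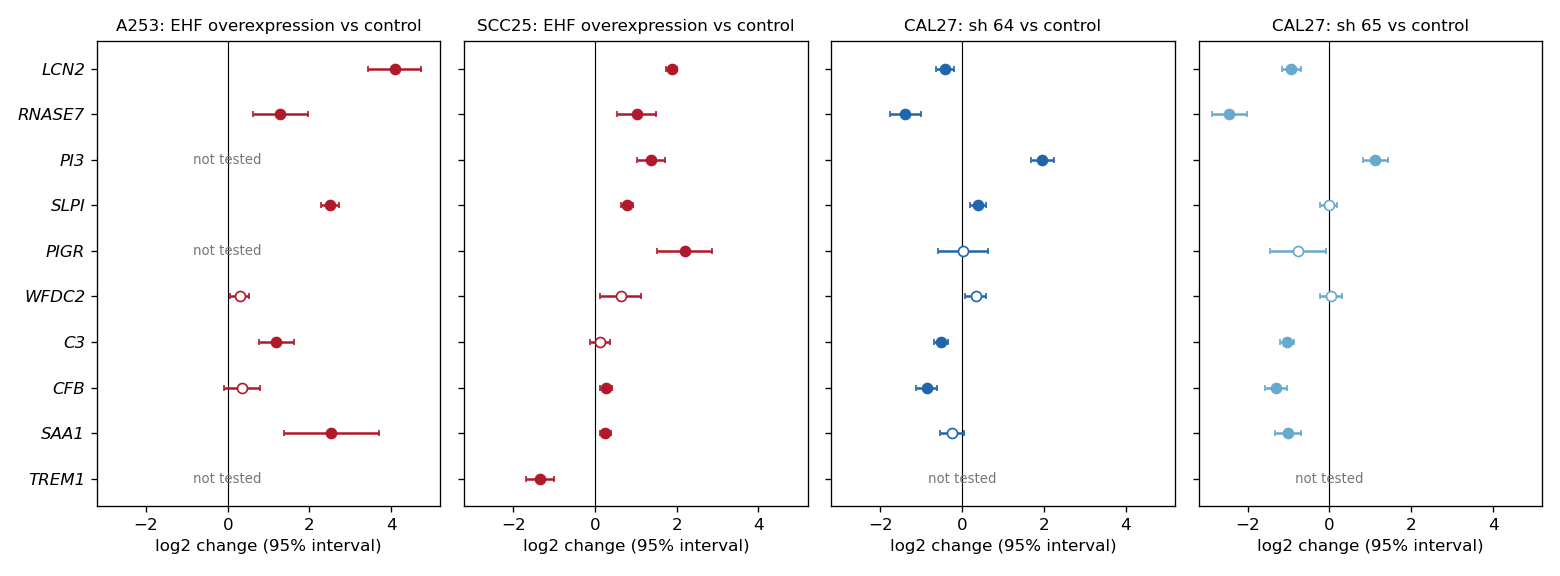
Log2 change of each gene against its line's control (points, with 95% intervals), in A253 and SCC25 with EHF overexpression and in CAL27 with sh 64 and with sh 65. Filled points passed an adjusted p of 0.05 and open points did not; LCN2 and RNASE7 lie right of 0 in both overexpression panels and left of 0 with both hairpins, and PI3 lies right of 0 with both hairpins.

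LCN2, the siderophore-binding lipocalin, changed in the direction of EHF in all 3 lines. It had 72, 95 and 88 counts in overexpressing A253 cells, against 4, 10 and 1 counts in A253 controls, or 5.63 ± 0.731 CPM against 0.294 ± 0.243 CPM (SD, n = 3 each). The groups did not overlap, and the log2 change was 4.08 (SE 0.30, adjusted p = 1.74e-07), a 16.9-fold rise from a level near the detection floor. Leaving out the A253 control with 10 counts moved it to 4.93. In SCC25, LCN2 stood at 89.8 and 94.96 CPM with overexpression, against 25.8 and 24.6 CPM in controls. That 3.67-fold rise (log2 change 1.87, SE 0.07, adjusted p = 1.23e-16) was the smallest adjusted p of the 10 genes in any line. In CAL27, LCN2 stood at 31.4 and 35.1 CPM with sh 64 and at 21.7 and 24.7 CPM with sh 65, against 42.4 and 45.7 CPM in controls. Every knockdown library was below both controls. The fall was larger with sh 65 (log2 change -0.93, SE 0.11, adjusted p = 1.90e-05) than with sh 64 (-0.42, SE 0.11, adjusted p = 0.0133). The sh 64 call was lost with DESeq2 (adjusted p = 0.0671), without the first sh 64 library (0.164), and without either control (0.0532 and 0.182).

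RNASE7, a ribonuclease that kills bacteria on skin and mucosa, also changed with EHF in all 3 lines, and its largest change was in CAL27. It stood at 6.18 and 7.78 CPM with sh 64 and at 3.80 and 2.66 CPM with sh 65, against 19.6 and 16.6 CPM in CAL27 controls. Both hairpins lay well below the controls without overlap. The fall was 2.62-fold with sh 64 (log2 change -1.39, SE 0.18, adjusted p = 3.97e-05) and 5.45-fold with sh 65 (-2.45, SE 0.21, adjusted p = 2.87e-07). In SCC25 it stood at 3.77 and 4.19 CPM with overexpression, against 1.91 and 2.03 CPM in controls, a 2.03-fold rise (log2 change 1.02, SE 0.23, adjusted p = 0.00205). By DESeq2 that call was lost (adjusted p = 0.0881). In A253 it had 28, 24 and 21 counts with overexpression, against 8, 11 and 11 counts in controls (log2 change 1.29, SE 0.32, adjusted p = 0.0178). The A253 libraries did not overlap in counts, yet the call was lost with DESeq2 (adjusted p = 0.114) and without control 1 (0.128), control 2 (0.0572) or overexpression library 1 (0.0781).

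**Figure D4:**
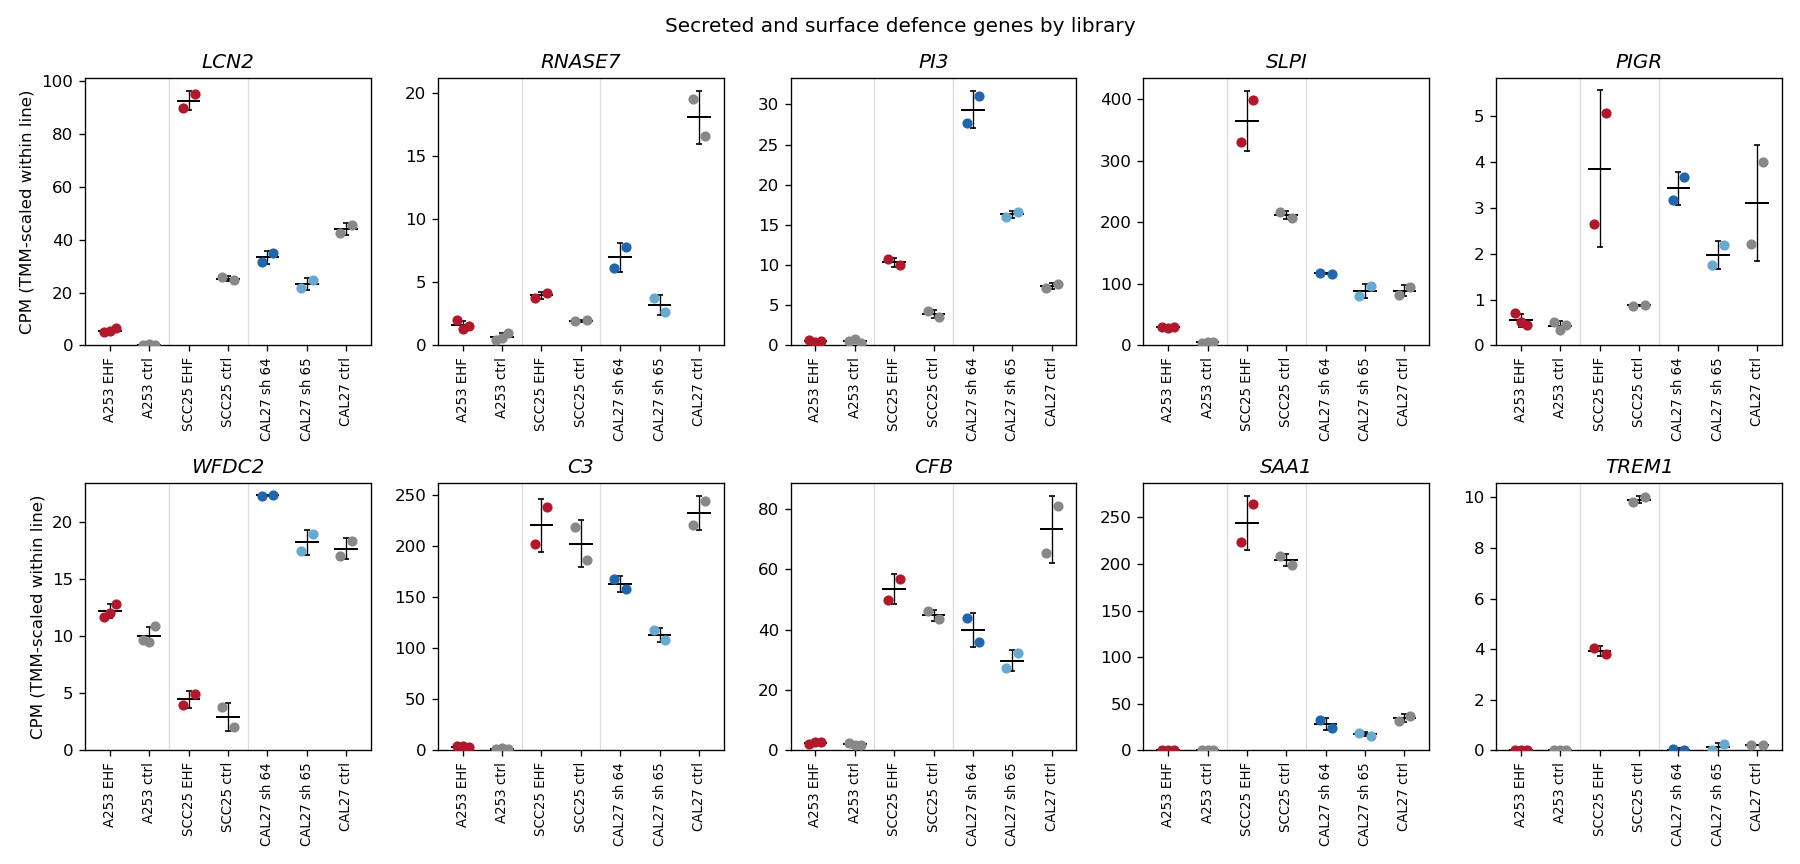
CPM of each of the 10 genes in every library (points), with the mean (bar) and SD of each group, linear axes from 0, and EHF-changed groups left of their control. LCN2 reaches 89.8 and 94.96 CPM in overexpressing SCC25 cells, RNASE7 is highest in CAL27 controls, and PI3 is highest with sh 64.

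Other epithelial antimicrobial genes did not move as one block. Of 34 genes on that list, 7 were tested in A253 with 1 higher and 1 lower (median log2 change 0.0184, against -0.00345 over all genes tested). S100A9, a subunit of calprotectin, averaged 55.4 ± 3.33 CPM in overexpressing A253 cells and 8.35 ± 0.807 CPM in A253 controls (SD, n = 3 each, log2 change 2.74, adjusted p = 5.91e-12). Its partner S100A8 was low in A253, at a mean log2 CPM of 0.68, and was not called (0.12, SE 0.27, adjusted p = 0.894). The chemokine CXCL14 fell by 2.00 on the log2 scale in A253 (adjusted p = 8.10e-06). In SCC25 12 were tested, 6 rose and 0 fell (median 0.365, against 0.00258 over all genes), led by the mucosal chemokine CCL28 (1.23) and S100A7 (0.94), which encodes psoriasin. In CAL27 11 were tested, and on the mean of both hairpins 4 rose and 2 fell (median -0.00974, against 0.00252 over all genes). Of all genes tested 5.03% rose and 2.94% fell in A253, 12.2% and 11.6% in SCC25, and 9.88% and 8.91% on the CAL27 mean. Those that rose included S100A8, at 160 ± 1.15 CPM with sh 64 and 67.1 ± 15.5 CPM with sh 65, against 31.3 ± 5.76 CPM in controls (SD, n = 2 each), and PGLYRP4 (1.35), a peptidoglycan-binding protein. S100A9 (1.08) and S100A7 (1.06) also rose on the CAL27 mean. Both had risen with EHF overexpression too, S100A9 in A253 and SCC25 (0.22) and S100A7 in SCC25. Those that fell were ZG16B (-1.46) and DMBT1 (-1.28), both known as salivary gland products, so that they carry the limit given above for the salivary transcripts. Neither was called with sh 64 (ZG16B -0.78, adjusted p = 0.140, and DMBT1 -0.86, adjusted p = 0.0881), and both fell with sh 65 (-2.13 and -1.70). The RNase A list holds relatives of RNASE7 and the ribonuclease inhibitor RNH1. Of its 9 genes, 4 were tested in each line, with 0 called in A253, and 1 higher (RNASE4, 0.42) and 1 lower (RNH1, -0.19) in SCC25. On the CAL27 mean 0 were called. With sh 64 alone 1 was higher and with sh 65 alone 0 were, against 8.76% and 7.62% of all genes. In RefSeq, RNASE7 lies next to RNASE8, a near relative with which reads could have been shared.

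SLPI, an inhibitor of neutrophil elastase, rose in both overexpression lines and did not fall in CAL27. It stood at 29.9, 28.2 and 30.8 CPM in overexpressing A253 cells, against 4.77, 5.12 and 5.95 CPM in A253 controls, a 5.66-fold rise (log2 change 2.50, SE 0.10, adjusted p = 7.38e-11). The groups were far apart and each was tight. In SCC25 it stood at 330.2 and 399 CPM with overexpression, against 216 and 207 CPM in controls (log2 change 0.79, SE 0.07, adjusted p = 3.25e-07). That call was lost without SCC25 control 2 (0.75, adjusted p = 0.182). Its CAL27 levels were 118 and 116 CPM with sh 64 and 80.0 and 96.0 CPM with sh 65, against 82.5 and 94.9 CPM in controls. It rose with sh 64 (log2 change 0.39, SE 0.09, adjusted p = 0.00879) and was not called with sh 65 (-0.02, 95% interval -0.22 to 0.18). The sh 64 rise was lost without the first sh 64 library (adjusted p = 0.0850) or control 1 (0.166).

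PI3 encodes elafin, an elastase inhibitor of the same domain family as SLPI. It rose both when EHF was raised in SCC25 and when it was lowered in CAL27. Overexpressing SCC25 cells held 10.8 and 9.98 CPM, against 4.32 and 3.58 CPM in controls (log2 change 1.38, SE 0.16, adjusted p = 6.26e-07). Knockdown CAL27 cells held 27.7 and 31.0 CPM with sh 64 and 16.02 and 16.6 CPM with sh 65, against 7.19 and 7.68 CPM in controls. All 4 knockdown libraries were above both controls, and sh 64 lay above sh 65. The rise was 3.89-fold with sh 64 (log2 change 1.96, SE 0.14, adjusted p = 8.32e-08) and 2.17-fold with sh 65 (1.12, SE 0.15, adjusted p = 4.35e-05). In A253 it was not tested, at 10, 8 and 7 counts with overexpression and 10, 14 and 3 counts in controls, which overlapped.

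WFDC2, which encodes the secreted protein HE4, was not called in any of the 3 lines. In A253 it stood at 11.7, 12.1 and 12.9 CPM with overexpression, against 9.72, 9.51 and 10.9 CPM in controls (log2 change 0.29, 95% interval 0.07 to 0.51, adjusted p = 0.115). In SCC25 it stood at 3.96 and 4.99 CPM with overexpression, against 3.77 and 2.03 CPM in controls (0.63, 95% interval 0.13 to 1.13, adjusted p = 0.0601). The SCC25 value passed the threshold without control 1 (1.16, adjusted p = 0.00147), without overexpression library 1 (0.76, adjusted p = 0.0203) and with no filter on low counts (adjusted p = 0.0274). The CAL27 libraries held 22.3 and 22.4 CPM with sh 64 and 17.5 and 19.0 CPM with sh 65, against 17.0 and 18.3 CPM in controls. Neither hairpin was called (0.33, adjusted p = 0.0798, and 0.03, adjusted p = 0.899). In RefSeq, PI3 lies next to WFDC5 and WFDC12, and both PI3 and SLPI lie beside the semenogelin genes SEMG1 and SEMG2, in the cluster of whey acidic protein genes.

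Of 22 other protease inhibitors, 10 were tested in A253 with 2 higher and 0 lower (median log2 change -0.00799). They were SERPINA1, which encodes the elastase inhibitor alpha-1 antitrypsin (1.63, adjusted p = 0.0202), and cystatin C, CST3 (0.29). SERPINA1 was low, at 1.02 ± 0.145 CPM in overexpressing A253 cells and 0.362 ± 0.233 CPM in A253 controls (SD, n = 3 each). The control mean lay below the floor of the low-count filter in A253, 0.635 CPM, so the SERPINA1 call may follow in part from that filter. In SCC25 11 were tested, 3 rose and 0 fell (median 0.219), led by SERPING1, the C1 inhibitor (2.35), and SPINT1, an inhibitor of membrane serine proteases (0.47). SERPING1 was low there, at a mean log2 CPM of -0.69 over the SCC25 libraries, with an SE of 0.62 on its change. Its call may follow in part from the low-count filter. In CAL27 11 were tested, and on the mean of both hairpins 4 rose and 1 fell (median 0.174). These counts stand beside 5.03% of all genes higher and 2.94% lower in A253, 12.2% and 11.6% in SCC25, and 9.88% and 8.91% on the CAL27 mean. SERPINA1 fell there by 1.58 on the log2 scale (adjusted p = 6.06e-05). Its level averaged 2.43 ± 0.830 CPM with sh 64 and 1.95 ± 0.148 CPM with sh 65, against 6.81 ± 0.847 CPM in controls (SD, n = 2 each). A2ML1 (1.18) and SPINK5 (1.13), inhibitors known from stratified epithelium, rose.

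C3, the central component of complement, rose in overexpressing A253 cells and fell with both hairpins. It stood at 4.13, 3.95 and 3.53 CPM in overexpressing A253 cells, against 1.495, 2.14 and 1.35 CPM in A253 controls (log2 change 1.19, SE 0.20, adjusted p = 0.00109). The groups did not overlap. In SCC25, where it was already abundant, it stood at 202 and 239 CPM with overexpression, against 219 and 186 CPM in controls, which overlapped (0.12, 95% interval -0.11 to 0.36, adjusted p = 0.445). Without SCC25 control 1 (0.24, adjusted p = 0.00202) or overexpression library 1 (0.23, adjusted p = 0.0117) it passed the threshold. In CAL27 it stood at 168 and 158 CPM with sh 64 and at 118 and 109 CPM with sh 65, against 220.5 and 244 CPM in controls. The 3 CAL27 groups did not overlap, with sh 64 at -0.51 (SE 0.08, adjusted p = 0.000274) and sh 65 at -1.04 (SE 0.08, adjusted p = 1.43e-07).

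CFB, the protease-bearing partner of C3 in the alternative pathway, fell with both hairpins. It stood at 44.0 and 35.9 CPM with sh 64 and at 27.4 and 32.2 CPM with sh 65, against 65.4 and 81.1 CPM in CAL27 controls. The log2 change was -0.87 with sh 64 (SE 0.12, adjusted p = 0.000218) and -1.31 with sh 65 (SE 0.13, adjusted p = 5.49e-06). In SCC25 it stood at 49.99 and 57.0 CPM with overexpression, against 46.1 and 43.5 CPM in controls, a 1.201-fold rise (log2 change 0.26, SE 0.07, adjusted p = 0.00911). That small call was lost with DESeq2 (adjusted p = 0.133), without control 2 (0.0648) and without overexpression library 2 (0.349, where the change was 0.15). In A253 it was not called, at 2.21, 2.84 and 2.87 CPM with overexpression and 2.36, 1.97 and 1.80 CPM in controls (0.35, 95% interval -0.08 to 0.79).

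SAA1, an acute phase apolipoprotein, ranged from 0 to 264 CPM over the libraries. In A253 it had 11, 12 and 13 counts with overexpression, against 3, 3 and 0 counts in controls (log2 change 2.54, SE 0.54, adjusted p = 0.00674), a call that rests on few counts and for which DESeq2 gave no adjusted p. In SCC25 it stood at 223 and 264 CPM with overexpression, against 208 and 199 CPM in controls, a 1.196-fold rise (log2 change 0.26, SE 0.06, adjusted p = 0.00423). This was lost without control 2 (adjusted p = 0.241) or overexpression library 2 (0.282, where the change was 0.12). In CAL27 it stood at 33.2 and 24.2 CPM with sh 64 and at 18.7 and 15.7 CPM with sh 65, against 31.4 and 37.4 CPM in controls. The sh 64 libraries overlapped the controls (-0.25, 95% interval -0.55 to 0.05, adjusted p = 0.264), and sh 65 fell (-1.01, SE 0.15, adjusted p = 0.000297). The mean of both hairpins (-0.63, adjusted p = 0.00215) lost its call without CAL27 control 2 (adjusted p = 0.0809). SAA1 lies next to the near-identical SAA2, and how the counting split reads between them is not known, so both are uncertain as single genes. SAA2 rose in SCC25 (0.52, adjusted p = 7.03e-05), fell on the CAL27 mean (-0.55, adjusted p = 0.00200) and was not called in A253 (-0.18, adjusted p = 0.886). By hairpin, SAA2 fell with sh 65 (-1.06, adjusted p = 4.03e-05) and was not called with sh 64 (-0.04, adjusted p = 0.884).

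Among the 33 other complement genes, the inhibitors moved as well as the components. In A253 18 were tested, 4 rose and 0 fell (median log2 change 0.185), led by CD55 (1.60), which shields cells from C3 convertases. CD55 stood at 97.8 ± 12.95 CPM in overexpressing A253 cells and 32.4 ± 1.76 CPM in A253 controls (SD, n = 3 each). In SCC25 13 were tested, 4 rose and 1 fell (C1QBP, -0.28), with a median of 0.136. CLU, which encodes the complement-inhibiting chaperone clusterin, stood at 280 ± 18.2 CPM in overexpressing SCC25 cells and 39.3 ± 0.823 CPM in SCC25 controls (SD, n = 2 each, log2 change 2.83, adjusted p = 1.18e-21), and CD55 rose by 0.63. In CAL27 15 were tested, and on the mean of both hairpins 4 rose and 2 fell (median 0.115). The shares of all genes were 5.03% higher and 2.94% lower in A253, 12.2% and 11.6% in SCC25, and 9.88% and 8.91% on the CAL27 mean. CD55 (-0.40) and the protease C1S (-0.36) fell, and CR2 (1.28) and CFI (1.19), the protease that cuts C3b, rose. CD55 was not called with sh 64 (-0.03, adjusted p = 0.904) and fell with sh 65 (-0.78, adjusted p = 0.000128). C1S too was not called with sh 64 (0.22, adjusted p = 0.281) and fell with sh 65 (-0.93, adjusted p = 0.000301). CR2 rose with sh 64 (1.96) and was not called with sh 65 (0.60, adjusted p = 0.485), and CFI rose with sh 64 (1.25) and was not called with sh 65 (1.13, adjusted p = 0.0587). Of 17 other acute phase genes, 5, 4 and 3 were tested in A253, SCC25 and CAL27, with 0 called in A253, SAA2 and the ferritin chain FTH1 higher in SCC25, and SAA2 lower and FTH1 (0.33) higher on the CAL27 mean, although FTH1 was not called with sh 65 (0.19, adjusted p = 0.0967).

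PIGR, the polymeric immunoglobulin receptor, rose in overexpressing SCC25 cells from a low level. It had 28 and 76 counts with overexpression, against 14 and 13 counts in SCC25 controls, or 2.64 and 5.06 CPM against 0.865 and 0.879 CPM. The groups did not overlap, but the overexpressing libraries differed from each other by more than the lower of them differed from the controls (log2 change 2.19, SE 0.32, adjusted p = 1.64e-05). Without overexpression library 2 the log2 change was 1.58. In CAL27 it stood at 3.17 and 3.68 CPM with sh 64 and at 1.75 and 2.18 CPM with sh 65, against 2.21 and 3.99 CPM in controls. Neither hairpin was called (0.02, adjusted p = 0.973, and -0.77, 95% interval -1.46 to -0.07, adjusted p = 0.135), and the 2 controls were far apart. In A253 it had 10, 9 and 6 counts with overexpression and 9, 6 and 5 counts in controls, and it was not tested.

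TREM1, the inflammatory amplifier, fell in overexpressing SCC25 cells. It had 43 and 57 counts (4.06 and 3.79 CPM) with overexpression, against 159 and 148 counts (9.82 and 10.0 CPM) in SCC25 controls. The groups were well apart, with a 2.54-fold fall (log2 change -1.34, SE 0.16, adjusted p = 9.63e-07). TREM1 had 0 counts in all 6 A253 libraries, which allows up to 0.0656 CPM over the overexpression libraries and 0.0649 CPM over the controls (3 counts of each group's total, counting error only). In CAL27 it had 1 and 0 counts with sh 64 and 0 and 2 counts with sh 65, against 2 and 4 counts in controls, too few to test. TYROBP, the adaptor through which TREM1 signals, had 0 counts in every library. Of 19 receptors and partners of the 10 proteins, 8 were tested in A253 with 1 higher (CD36, a receptor for SAA, 1.24, adjusted p = 0.0266). In SCC25 9 were tested with 3 higher (led by EGFR, 0.42, and CD36, 0.39) and 2 lower (RNH1 and ANXA2, -0.15). In CAL27 5 were tested, and SCARB1, another SAA receptor, was lower on the mean of both hairpins (-0.30, adjusted p = 0.0115) and not called with sh 64 (-0.15, adjusted p = 0.294). Beside these counts, all genes gave 5.03% higher and 2.94% lower in A253, 12.2% and 11.6% in SCC25, and 9.88% and 8.91% on the CAL27 mean.

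Receptors and transcription factors upstream of secreted defence genes changed in part. Of 35 genes listed, 32 were tested in A253 with 7 higher and 1 lower (median log2 change 0.0893). IRF1, an interferon-responsive factor, stood at 70.3 ± 2.36 CPM in overexpressing A253 cells and 36.6 ± 2.15 CPM in A253 controls (SD, n = 3 each, log2 change 0.94, adjusted p = 1.86e-07). The double-stranded RNA sensor TLR3 rose there (0.67) and the interleukin 17 receptor chain IL17RA fell (-0.39). In SCC25 31 were tested with 9 higher and 3 lower (median 0.116). IRF1 (0.60) and the bacterial lipoprotein receptor TLR2 (0.74) rose, and TLR6 (-0.49) and CEBPA (-0.45) fell. In CAL27 32 were tested, and on the mean of both hairpins 12 rose and 4 fell (median 0.164). All genes gave 5.03% higher and 2.94% lower in A253, 12.2% and 11.6% in SCC25, and 9.88% and 8.91% on the CAL27 mean. The interleukin 22 receptor chain IL22RA1 (1.85) and TLR1 (1.22) rose, and TLR2 (-0.46) and IL6R (-0.30) fell. With sh 64 alone neither TLR2 (-0.30, adjusted p = 0.225) nor IL6R (-0.24, adjusted p = 0.174) was called. ELF3, another epithelial ETS factor, stood at 65.8 ± 7.98 CPM with sh 64 and 115 ± 17.4 CPM with sh 65, against 38.3 ± 2.85 CPM in CAL27 controls (SD, n = 2 each). With sh 65 the change of ELF3 was 1.57 (adjusted p = 1.90e-07), and NFKB1, an NF-kB subunit, fell by 0.52 (adjusted p = 0.00103).

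As a fold change, the effect of overexpression was larger in A253 than in SCC25 for 4 genes, each of which started from a lower level in A253. The SCC25 effect minus the A253 effect was -2.22 for LCN2 (SE 0.31, adjusted p = 0.000288), -1.73 for SLPI (SE 0.13, adjusted p = 1.57e-07), -2.29 for SAA1 (SE 0.46, adjusted p = 0.00705) and -1.07 for C3 (SE 0.22, adjusted p = 0.0102), from 1 fit of both lines. Of all genes tested, 5.63% were called, with 3.25% lower and 2.39% higher in effect in SCC25. EHF itself rose by 0.99 in SCC25 and by 3.02 in A253 on the log2 scale, a difference of -2.05 (adjusted p = 5.56e-10), and the part of this in the 4 differences was not tested. No difference was called for RNASE7 (-0.28, 95% interval -1.10 to 0.54), CFB (-0.11, 95% interval -0.52 to 0.30), WFDC2 (0.33, 95% interval -0.22 to 0.88), PI3 (1.45, adjusted p = 0.0591) or PIGR (1.84, adjusted p = 0.0810). PI3 passed the threshold with no filter on low counts (adjusted p = 0.0420) and without A253 control 3 (0.0259) or A253 overexpression library 1 (0.0470), PIGR passed without SCC25 overexpression library 1 (0.0357), and TREM1, at 0 in A253, gave no usable difference. At an unadjusted p under 0.05, 2 genes were higher and 4 lower.

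The hairpins differed as well, and every gene tested was lower with sh 65 than with sh 64 on the fitted scale. The sh 65 minus sh 64 difference passed the threshold for 6 of 9 genes, against 5.34% of all genes called, 3.13% lower and 2.21% higher. It was -1.06 for RNASE7 (SE 0.24, adjusted p = 0.0143), -0.84 for PI3 (SE 0.13, adjusted p = 0.000607), -0.76 for SAA1 (SE 0.16, adjusted p = 0.00891), -0.53 for C3 (SE 0.08, adjusted p = 0.000722), -0.52 for LCN2 (SE 0.12, adjusted p = 0.0143) and -0.41 for SLPI (SE 0.10, adjusted p = 0.0157). CFB (-0.44, adjusted p = 0.0758), WFDC2 (-0.30) and PIGR (-0.79) were not called. EHF was -0.16 between the hairpins (95% interval -0.31 to -0.01, adjusted p = 0.230). Without the first sh 64 library only PI3 and C3 kept an adjusted p under 0.05, and without the second PI3, C3 and SAA1 did. LCN2 and SLPI were also lost without the first sh 65 library (adjusted p = 0.0878 and 0.125) and RNASE7 without the second (0.0552), and CFB passed without the second (0.0184). The salivary marker sum was lowest in the second sh 65 library, at 20.1 CPM. Leaving that library out cannot show the part of the salivary transcripts in the differences, because every other CAL27 library carried them too. That part was not tested. The hairpin names are those of the count table, and the authors' TPM table gives them the other way round, so which hairpin is sh 64 is uncertain. Under the TPM table's names the sign of every difference in this paragraph would turn, and its size would not.

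**Figure D5:**
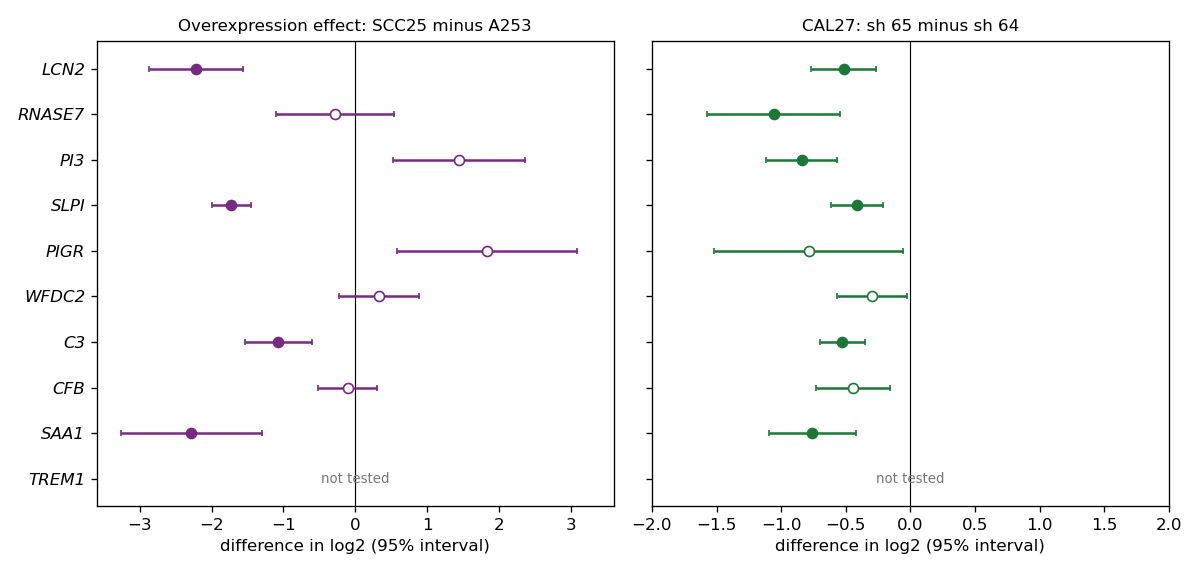
Differences in log2 (points, with 95% intervals) between the overexpression effects of SCC25 and A253 (left) and between sh 65 and sh 64 in CAL27 (right). Filled points passed an adjusted p of 0.05: LCN2, SLPI, C3 and SAA1 lie left of 0 in both panels, and all 9 genes tested lie left of 0 for the hairpins.

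Across the 16 libraries, each centred on the mean of its line, the 7 genes tested in all 3 lines varied together to unequal degrees. These correlations of log2(CPM + 1) are descriptions, since the libraries share the EHF change itself. Pearson's r was highest for C3 with SAA1 (0.925) and for SLPI with LCN2 (0.905), 0.844 for RNASE7 with CFB, and lowest for WFDC2 with CFB (0.131). Among 12658 genes, those most like LCN2 were NDRG2 (0.970) and GPCPD1 (0.964), and those most like SLPI were PKM (0.973) and ERAP2 (0.969). KIFC3 was most like RNASE7 (0.955), SQSTM1 most like CFB (0.918), TAF4B most like SAA1 (0.949), OGFRL1 most like C3 (0.929) and PARK2 most like WFDC2 (0.905).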

How the data were processed

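Per the submitters' processing notes, reads were processed with TopHat2 2.1.1, Bowtie 1.1.1, featureCounts 1.5.3 and DESeq2 1.12.4 on hg19, with no roles given. The deposited count tables hold whole-number read counts per gene symbol, 1 table per line. The authors' deposited TPM tables of A253 and CAL27 served for relative gene lengths, which fell within 0.02 log2 of each other for 17691 of 17691 genes, and TPM was recomputed from counts in every library. The deposited SCC25 table beside its counts has a header shifted by 1 cell and values that do not scale with gene length, so it was not used. Of the gene names in the CAL27 counts, 696 were altered, none of them a member, and names were taken by position from the A253 table. Zeros matched between CAL27 count and TPM libraries fully for 6 libraries, 4 of which carry the other hairpin name in the TPM table. The replicate numbers also differ there, so that sh 64 libraries 1 and 2 of the counts match sh 65 libraries 2 and 1 of the TPM table. Names and numbers used here are those of the counts.

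Counts were filtered (filterByExpr, minimum count 10), scaled by TMM and tested with a robust edgeR 4.0.16 quasi-likelihood fit per line in R 4.3.3, two-sided, with Benjamini-Hochberg adjustment over all genes tested and a threshold of 0.05. The SCC25 and A253 effects were compared in 1 fit of both lines. The SE is the log2 change divided by the root of the F statistic, and intervals have a confidence level of 0.95. Scripts were tested on simulated data. Alternatives were DESeq2 1.42.0, no filter on low counts, a replicate block, and leaving out each library; with 1 sample left in an arm it is assumed to vary like the other groups. Counts of a gene bound its precision, and the counting floor is 3 counts.

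The members and gene lists were chosen with earlier results of these data known. Genes named are EHF, the members, up to 2 members with the largest rise and 2 with the largest fall past the threshold from each list in each comparison with control, and the 2 genes most like each member by Pearson correlation. S100A8 and SAA2 in A253, S100A9 in SCC25, S100A9 and S100A7 on the CAL27 mean, ELF3, values by hairpin of list genes and the salivary, leukocyte, squamous and fibroblast markers were also named, after their values were seen. Protein sequences were not used here. One gene that this rule names is not reported here.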

Additional observations from a re-analysis of the deposited data

Results flagged for a closer look

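In 4 genes the overexpression effect differed between the lines by a test of the difference itself (edgeR interaction, SCC25 effect minus A253 effect in log2). The difference was -2.22 for LCN2, -1.73 for SLPI, -1.07 for C3 and -2.29 for SAA1. For LCN2 and SAA1 the A253 control libraries held at most 10 and 3 counts.

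In 6 genes the hairpins differed in CAL27 by the same kind of test (sh 65 minus sh 64 in log2). The difference was -0.52 for LCN2, -1.06 for RNASE7, -0.84 for PI3, -0.41 for SLPI, -0.53 for C3 and -0.76 for SAA1. PI3 rose against controls with both hairpins, and the other 5 had a lower or an uncalled value with sh 65. Which hairpin is which is uncertain, and under the names of the authors' TPM table these signs turn.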

How the results depend on the processing

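No called value changed sign under any alternative run. Among single-gene values of the 10 members, 380 kept a call, 221 stayed uncalled, 29 lost a call and 16 gained one, and among the other named genes 775 kept a call and 135 lost it. Some uncalled values did change sign when 1 library was left out: C3 in SCC25 (-0.0081), PIGR on the CAL27 mean (0.21) and with sh 64 (-0.07 and -0.24), SLPI with sh 65 (0.11 and 0.09), WFDC2 with sh 65 (-0.03 and -0.01) and WFDC2 for SCC25 minus A253 (-0.02). By DESeq2 the genes called numbered 1527 in SCC25 (3370 by edgeR), 1446 on the CAL27 mean (2560), 1192 with sh 64 (2133), 1172 with sh 65 (1994), 446 for sh 65 minus sh 64 (728) and 521 for SCC25 minus A253 (871), and members higher in A253 numbered 3 (5). With no filter on low counts 1 member had a higher effect in SCC25 than in A253 (0). Leaving out each library in turn gave 658 to 1036 genes called in A253 (1156), 2124 to 3639 in SCC25, 937 to 3038 on the CAL27 mean, 866 to 2876 with sh 64, 879 to 2026 with sh 65, 263 to 1048 for sh 65 minus sh 64 and 318 to 936 for SCC25 minus A253. It gave 4 to 9 members higher in SCC25, 1 to 2 higher on the CAL27 mean, 1 to 2 higher with sh 64, 2 to 6 lower for sh 65 minus sh 64 and 0 to 1 with a higher effect in SCC25. The lowest counts came without A253 control 1, SCC25 overexpression library 2 or control 2, CAL27 control 1, and sh 64 library 1. The cause was not tested. Replicate numbers did not meet the rule for pairing, a correlation over 0.1 in every pair: same-numbered libraries deviated together with correlations of -0.192, 0.0108 and 0.181 in A253, -0.0306 in SCC25 and -0.0107, 0.0855 and 0.153 in CAL27. In all 3 CAL27 arms the salivary marker sum was higher in library 1 than in library 2, and the sh 64 numbers differ between the authors' tables. With a replicate block the hairpin difference had 1260 genes called (728) and 2 members were higher on the CAL27 mean (SLPI, adjusted p = 0.0365, and PI3); WFDC2 passed in SCC25 (0.0485) and with sh 64 (0.0491), CFB passed for sh 65 minus sh 64 (0.0403) and C3 lost its difference between the lines (0.0593). Depth limits TREM1 outside SCC25, and PI3, PIGR, SAA1 and LCN2 in A253 controls, where few counts stand behind each value.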
